A study of Mus musculus with 12 samples.

Results

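Zfp42, Triml1 and Triml2 are neighbouring protein-coding genes of mouse chromosome 8. They were chosen by name, as 3 of the 21631 protein-coding genes in RefSeq on the chromosomes listed, together with the chromatin up to 200 kb beyond their outer ends (chr8:42929806-43507009, mm10). This window held 22 of the 49460 bins of 10 kb listed in embryonic stem cells (ESCs) before induction of a Klf knockout and 23 of the 47307 listed after 24 h. It also held 4 of 21563 KLF4 peaks and 28 of 55466 H3K27ac peaks of induced pluripotent stem cells (iPSCs). Chromatin immunoprecipitation sequencing (ChIP-seq) measured H3K27ac, the acetylation of histone H3 at lysine 27 that marks active enhancers and promoters, and binding of the zinc-finger factor KLF4.

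The ESCs were V6.5 cells carrying a lentiviral, doxycycline-inducible Cas9 whose guides target either Klf4 or the trio of Klf2, Klf4 and Klf5. The line was selected with puromycin and grown from picked clones, both times alike, on feeder cells. H3K27ac was measured in 2 replicates without induction (0 h) and in 2 replicates after 24 h of doxycycline. The 24 h titles say both TKO and KLF4 KO, so the labels do not settle which genes were cut, and the labels do not say whether the replicates were separate clones. iPSCs, whose cell of origin the labels do not give, had 2 KLF4 and 2 H3K27ac replicates. All 12 samples, inputs included, carry the label 2i, a pair of MEK and GSK3 inhibitors that keeps mouse pluripotent cells naive. Each of these 4 groups was represented by 1 deposited list with no value per replicate, so no error between replicates and no test between times could be computed, and read depth is unknown.

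Zfp42, also called Rex1, encodes a zinc-finger protein of the YY1 family that arose from a retrotransposed copy of Yy1. It is a classic marker of naive mouse pluripotent cells and is silenced as they leave that state. KLF factors bind GC-rich CACCC-type sequence and, together with OCT4, SOX2, NANOG and ESRRB, occupy enhancers of naive genes. Triml1 and Triml2 encode tripartite-motif-like proteins, and human TRIML2 has been linked to the p53 pathway.

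The promoter sequences of the 3 genes are shown because KLF4 was placed directly on one of them and acetylation on only some. They come from RefSeq (GRCm38.p6, the assembly of mm10), run from 250 bases before to 50 bases after the start site on the gene's own strand, and have capitals where a script found a searched motif.
Zfp42 promoter, chr8:43306960-43307259, minus strand: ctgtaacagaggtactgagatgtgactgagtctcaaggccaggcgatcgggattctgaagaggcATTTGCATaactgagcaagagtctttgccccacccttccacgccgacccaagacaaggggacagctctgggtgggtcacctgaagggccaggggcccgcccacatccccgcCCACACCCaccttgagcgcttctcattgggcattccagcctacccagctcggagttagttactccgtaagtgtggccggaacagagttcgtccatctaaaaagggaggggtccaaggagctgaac
Triml2 promoter, chr8:43180286-43180585, plus strand: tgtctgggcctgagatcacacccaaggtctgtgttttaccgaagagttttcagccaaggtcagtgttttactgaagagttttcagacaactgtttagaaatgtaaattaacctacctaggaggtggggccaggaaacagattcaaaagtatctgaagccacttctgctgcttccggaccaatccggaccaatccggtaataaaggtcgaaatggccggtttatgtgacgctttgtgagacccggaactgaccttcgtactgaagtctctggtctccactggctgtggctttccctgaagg
Triml1 promoter, chr8:43141437-43141736, minus strand: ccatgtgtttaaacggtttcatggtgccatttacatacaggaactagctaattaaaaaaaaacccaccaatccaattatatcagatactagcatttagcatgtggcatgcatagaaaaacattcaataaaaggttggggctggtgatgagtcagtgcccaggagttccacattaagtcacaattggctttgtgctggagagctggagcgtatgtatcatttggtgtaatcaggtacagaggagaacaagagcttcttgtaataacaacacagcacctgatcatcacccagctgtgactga

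The searched motifs were GGGNGTGG for KLF factors, the octamer ATTTGCAT, ACAATGG and ACAAAGG for SOX factors and AAGATGGC for YY1, each on both strands. The Zfp42 promoter held 1 KLF match, CCACACCC on the strand shown, and 1 octamer. No match lay in the Triml1 or Triml2 promoter. A KLF match was found in 17.6% of 32851 RefSeq promoters and in 34.1% of the 5150 that touched an iPSC KLF4 peak. The octamer was found in 1.74% of all promoters and in 1.09% of those with KLF4. ACAATGG was in 3.66% of all promoters, ACAAAGG in 5.88% and AAGATGGC in 2.75%. None of the motifs searched overlapped another in these promoters. GC content was 57.7% for Zfp42, 48% for Triml2 and 41.3% for Triml1.

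Zfp42 lies on the minus strand at chr8:43295067-43307009, Triml2 on the plus strand at chr8:43180463-43193884 and Triml1 on the minus strand at chr8:43129806-43180494. The far 5′ end of the Triml1 span overlaps the start of Triml2 by 32 bp, whereas the promoter that the RefSeq table gives for Triml1 lies inside that span. Between Triml2 and Zfp42 lie 101 kb. Besides the 3 genes, RefSeq places the pseudogenes Gm6284 and Gm2221 in the window. The nearest other protein-coding genes are Adam26b, 213 kb above Zfp42, and Frg1, 1713 kb below Triml1.

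In the lists used here, the locus stood alone. The ESC bins of the window spanned 270 kb and ran from chr8:43120001-43130000 to chr8:43380001-43390000. The next listed ESC bins lay 1300 kb below and 1050 kb above. The outermost iPSC H3K27ac peaks of the window were 1369 kb and 606 kb from the next peaks, and the outermost KLF4 peaks 1096 kb and 913 kb.

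KLF4 binding in iPSCs was centred on Zfp42. The peak at chr8:43306862-43307312, 451 bp wide, covered the Zfp42 start site and all 300 bases of the promoter printed above, including both matches. A second peak of 295 bp, at chr8:43308284-43308578, lay 1.27 kb upstream of the start site. The outermost, at chr8:43320693-43321245, lay 13.7 kb upstream and was the widest of the window at 553 bp, as wide as or wider than 94.3% of all KLF4 peaks. The peak list gives no height, so width is the only measure of size here.

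The Triml genes shared the remaining KLF4 peak. It lay at chr8:43179408-43179515, inside the Triml1 span and 1.02 kb upstream of the Triml2 start site. At 108 bp it was among the narrowest of the list, since only 2.42% of KLF4 peaks were as narrow or narrower. The RefSeq start site of Triml1 was 37.9 kb from it.

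All 4 KLF4 peaks overlapped an iPSC H3K27ac peak by at least 1 bp. Of these, 2 lay in the same H3K27ac peak, so the 4 are not independent and no interval is given. Over the whole list the share was 48.7%. Conversely, 3 of the 28 H3K27ac peaks (10.7%) held KLF4, against 19.3% of all H3K27ac peaks.

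The iPSC H3K27ac peaks formed 3 clusters when pieces 10 kb or less apart were joined. The Zfp42 cluster, chr8:43292246-43326156, had 10 peaks covering 13222 bp and 3 of the KLF4 peaks. By covered length it ranked 330 among 18836 clusters. Its largest peak, chr8:43304643-43310049, was 5407 bp wide and spanned the Zfp42 start site, and a separate peak of 2233 bp, chr8:43320415-43322647, held the KLF4 site 13.7 kb upstream.

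A similar acetylated block covered the facing ends of Triml1 and Triml2. This cluster, chr8:43175329-43194961, had 12 peaks covering 9883 bp and ranked 554. Its largest peak, chr8:43177124-43182702, was 5579 bp wide, wider than the one on Zfp42, and held the narrow KLF4 peak. The RefSeq promoter of Triml1 held no H3K27ac peak, and the nearest was 33.8 kb upstream of it.

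The third cluster lay in no annotated gene, 44.6 kb and more above Zfp42, at chr8:43351572-43355398. It had 6 peaks covering 2622 bp, ranked 3544, and held no KLF4 peak. The iPSC and ESC lists largely met at this locus: all 28 iPSC peaks lay in a bin with a 0 h value, against 81.5% of all iPSC peaks. These pieces fell in only 8 bins and 3 clusters, so they are not independent and no interval is given. In the other direction, neighbouring bins can share a value or a peak, so again no interval is given. Of the 11 bins with a 0 h value, 8 held an iPSC peak (72.7%), against 73.6% over all bins. The 3 that did not were the bins at chr8:43160001-43170000, chr8:43260001-43270000 and chr8:43330001-43340000.

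**Figure D1:**
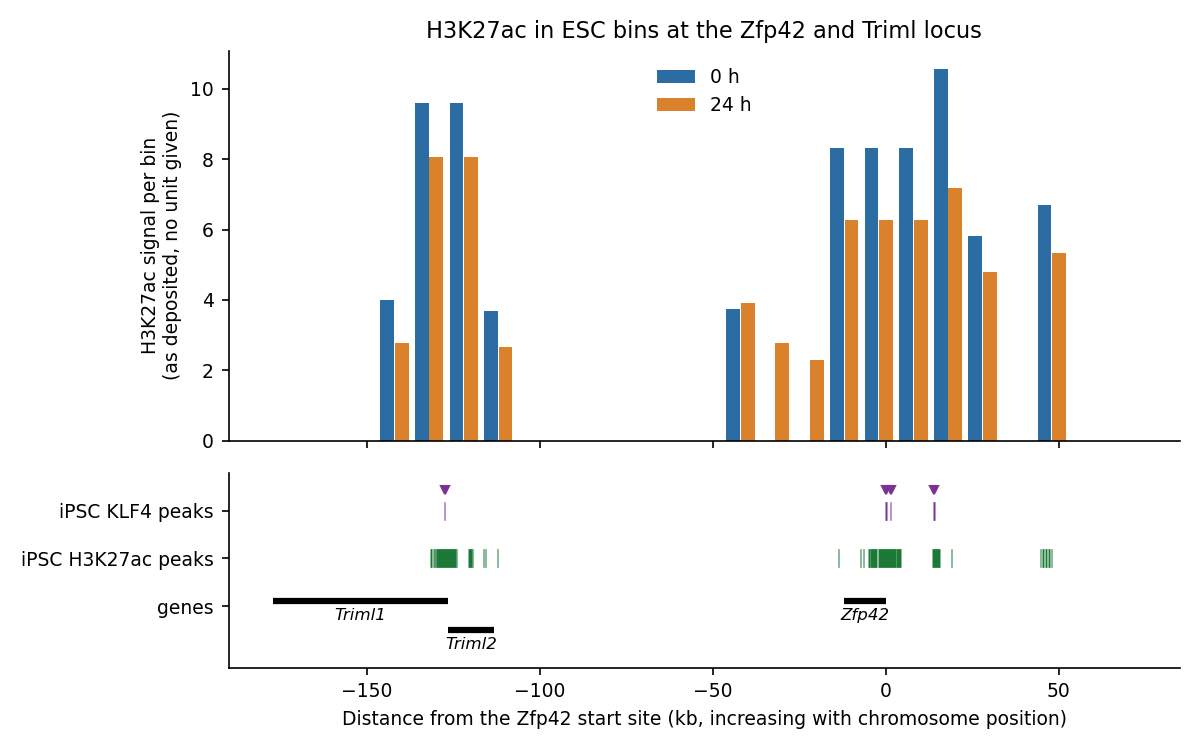
Upper panel: deposited H3K27ac signal of each 10 kb ESC bin at 0 h (blue) and 24 h (orange), against the distance in kb from the Zfp42 start site. No bar means no value or no listing. Lower panel: iPSC KLF4 peaks (with triangles), iPSC H3K27ac peaks and the 3 genes on the same axis. The orange bar is the lower in 10 of the 11 bins with both bars, and all KLF4 peaks lie under bars of 8.33 or more at 0 h.

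Acetylation in the edited ESCs was set between the times by the H3K27ac signal of each bin, the last column of the ESC lists. Its unit and scaling are not stated, and most bins had a lower number in the 24 h list. The relative log2 value therefore subtracts -0.23, the median log2 ratio (24 h to 0 h) of all 22739 bins valued at both times. Signals as deposited are given first and cannot be compared between the times without that step.

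At Zfp42, the 3 bins from chr8:43290001-43300000 to chr8:43310001-43320000 shared 1 value per time, 8.33 at 0 h and 6.27 at 24 h. At 0 h that value was at or above 88.2% of valued bins, and at 24 h at or above 83.5%. The relative log2 value was -0.18, that is, the 24 h to 0 h ratio was 0.880 times that of the median bin. Among 11243 protein-coding genes with a bin valued at both times within 10 kb, 18.2% had a value as low or lower. Because the 3 bins repeat 1 number, Zfp42 gives a single measurement with no spread. Another bin within 10 kb, chr8:43280001-43290000, had a value only at 24 h and does not enter the relative value.

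The bin upstream of Zfp42 that held the widest KLF4 peak, chr8:43320001-43330000, had the highest 0 h value of the window and the lowest relative value. Its signal was 10.6 at 0 h and 7.18 at 24 h, with a relative log2 of -0.33. Of all bins, 14.7% were as low or lower, and of KLF4 bins 21.7%. The next bin, chr8:43330001-43340000, with no iPSC peak, had 5.83 and 4.80 and a relative log2 of -0.05. The bin of the third iPSC cluster, chr8:43350001-43360000, had 6.70 and 5.35 and a relative log2 of -0.10.

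The facing ends of Triml1 and Triml2 stayed close to the median course. Bins chr8:43170001-43180000, with the narrow KLF4 peak, and chr8:43180001-43190000, with the Triml2 start site, shared 9.60 at 0 h and 8.07 at 24 h, for a relative log2 of -0.02. In rank their signal went from 93.3% to 94.4% of valued bins at or below it. The weaker flanking bins had lower relative values, -0.31 at chr8:43160001-43170000 (4.01 and 2.77) and -0.24 at chr8:43190001-43200000 (3.68 and 2.67).

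As means over bins within 10 kb, the relative log2 was -0.15 (SD over 4 bins 0.15) at Triml1 and -0.09 (SD over 3 bins 0.12) at Triml2. Both genes use the same 3 bins from chr8:43170001-43180000 to chr8:43190001-43200000, so these are not independent values. The bin of the RefSeq Triml1 start site, chr8:43140001-43150000, and the bins on either side of it were listed at both times without a signal. In order of relative value Zfp42 was lowest, then Triml1, then Triml2, and the differences among them were within the SD over the Triml bins.

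Between the genes, the small signal went the other way. The bin chr8:43260001-43270000, 42.0 kb below the Zfp42 start site, had 3.76 at 0 h and 3.90 at 24 h, with a relative log2 of 0.28, the only value above 0 in the window. Bins chr8:43270001-43280000 and chr8:43280001-43290000 had a value only at 24 h, of 2.78 and 2.28. These are low signals, at or above 15.9% and 4.59% of valued 24 h bins. None of these 3 bins held an iPSC peak of either kind.

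Over the window, 10 of 11 bins valued at both times, forming 8 runs of distinct values, had a relative value below 0, with a median of -0.18 and an SD of 0.17. By construction 50.0% of all bins lay below 0, and 63.4% of 8857 KLF4 bins. Without the reference, 10 of 11 ratios were below 1, against 77.5% of all bins. With 1 bin per run of equal values the median of the window was -0.14. The 3 KLF4 bins had a median of -0.18, and the 8 others -0.14. Some of the others repeat the value of a neighbouring KLF4 bin, so this split does not compare separate measurements. No bin of the window lost its value at 24 h, beside 15.2% of all bins with a 0 h value. Of 13 bins valued at 24 h, 2 had none at 0 h, beside 11.2% of all. With so few bins, neither count can be told from the share over all bins, which was not matched for signal.

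Bins of high signal had lower relative values in general. In the ninth decile by mean signal, where the Zfp42 bins fell, the median relative value was -0.04 over 2274 bins and 29.3% were as low as Zfp42 or lower. In the highest decile the median was -0.06, and 12.7% were as low as the bin upstream of Zfp42, whereas 60.3% were as low as the bins of the Triml2 start. For the weakest locus bins the median of the decile was above 0. In decile 2 it was 0.05, and 21.4% were as low as chr8:43190001-43200000. In decile 3 it was 0.07, and 17.0% were as low as chr8:43160001-43170000. In decile 4 it was 0.03, and 76.9% were as low as chr8:43260001-43270000. Bins with KLF4 had a median of -0.08.

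**Figure D2:**
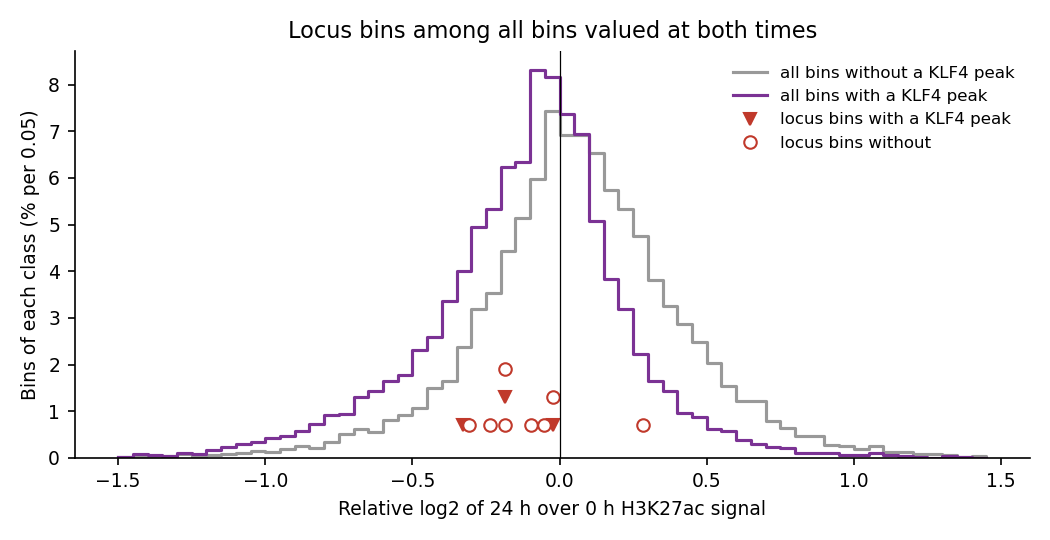
Relative log2 of 24 h over 0 h H3K27ac signal (horizontal axis) for all bins with and without an iPSC KLF4 peak, as percent of each class per step of 0.05, drawn from -1.5 to 1.5. Red marks are the 11 locus bins at their own horizontal value, stacked where equal, with no meaning to their height. They lie between -0.33 and 0.28, inside the bulk of both curves, and 10 of them lie below 0.

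The fourth column of the ESC lists is a whole number per bin whose meaning is not stated, called the bin score here. Its highest value in the window was at the start of Triml2, where it was 14 at 0 h and 11 at 24 h, followed by the neighbouring bin of the narrow KLF4 peak with 13 and 11. At 0 h these scores were at or above 98.1% and 97.6% of all bins. The bin of the Zfp42 start site scored 11 at both times. The bin with the widest KLF4 peak scored 11 and 8, and that of the third iPSC cluster 9 and 6.

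Summed over the window, the score was 110 at 0 h and 86 at 24 h, so that 24 h held 43.9% of both, against 47.5% over all bins. Of 20 bins listed at both times, 10 had a lower score at 24 h, 10 an equal one and none a higher one. Over all bins, 37.2% were lower and 22.5% higher. Among bins with a 0 h score of 3 or more, 9 of 12 in the window were lower, against 54.4% of all such bins. In the window the 24 h share was 46.2% in the 3 KLF4 bins and 42.7% in the others. Over all bins with KLF4 it was 45.8%, below the 47.5% of all bins, so the contrast in the window was not the general one.

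At the genes themselves the score differed less from the general course. With 10 kb flanks it was 26 and 23 at Zfp42 (46.9% at 24 h), 37 and 33 at Triml1 (47.1%) and 33 and 28 at Triml2 (45.9%). A lower sum at 24 h was found at 55.4% of the 11243 protein-coding genes with a bin valued at both times. The bins with the largest falls, 3 each, were that of the Triml2 start, those at chr8:43320001-43330000, chr8:43330001-43340000 and chr8:43350001-43360000 above Zfp42, and the one at chr8:43260001-43270000 between the genes. The last had a higher relative H3K27ac value and a score of 6 and 3, so the 2 measures went in opposite directions there.

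**Figure D3:**
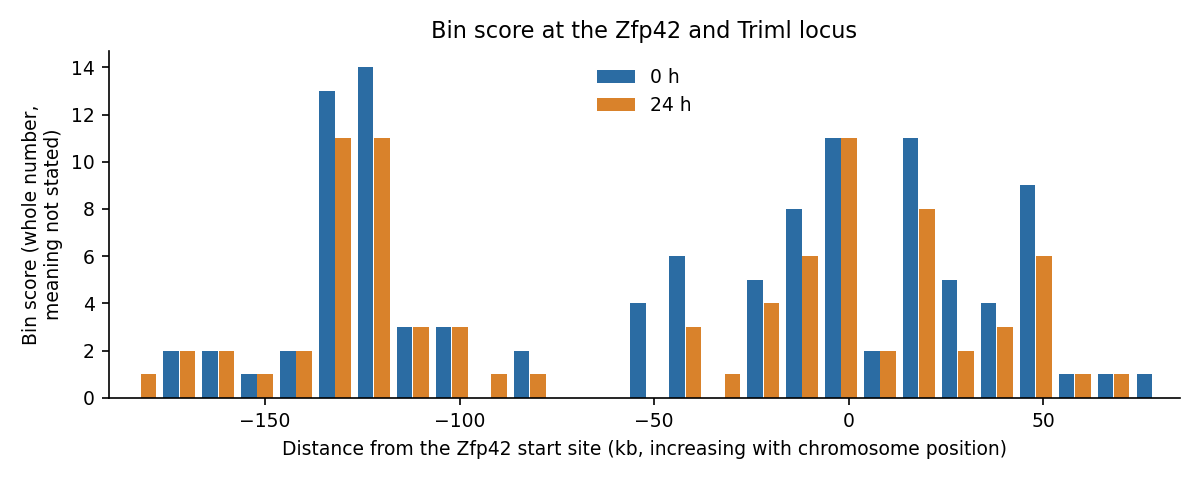
Bin score (vertical axis, whole number of unstated meaning) of each 10 kb ESC bin at 0 h (blue) and 24 h (orange), against the distance in kb from the Zfp42 start site. No bar means that the bin was not listed at that time. No bin listed at both times has the higher bar at 24 h, and the bin of the Zfp42 start site has 11 at both.

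Columns 5 to 9 hold marks of 0, 1 or 2, the same at both times, whose meaning is not stated either. The bin of the Zfp42 start site and that of the Triml2 start site both carried the marks of columns 7 and 9. The column 9 mark was given to 303 bins, 0.553% of all, every one of which also had the column 7 mark, and all 303 had a 0 h signal, with a median of 9.81. KLF4 peaks lay in 81.2% of them, against 22.9% of all listed bins and 38.0% of those with a 0 h signal, and their median relative H3K27ac value was -0.18, equal to Zfp42 at this precision. The Triml2 bin was among those without a KLF4 peak, since the peak near it fell in the neighbouring bin.

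The bin upstream of Zfp42 with the widest KLF4 peak was the only one of the window with the column 6 mark. That mark was carried by 470 bins, of which 68.1% held KLF4, and none had the column 7 mark, and their median relative value was -0.10. The column 8 mark lay on 1 bin, chr8:43150001-43160000 inside Triml1, without a signal. Column 5 marked no bin of the window.

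Zfp42 was then set beside a list of 32 genes linked to pluripotency, itself included, called the naive list here. Not every gene of this list is particular to the naive state. A bin valued at both times was found for 31 genes of the list. Of these, 22 had a relative value below 0 and 9 above, with a median of -0.15. Without Zfp42, 21 of 30 were below 0. Over the 11243 protein-coding genes with such a bin, 46.7% were below 0, with a median of 0.02. KLF4 peaks lay within 10 kb of 28 of the 31. Among the 8404 of the 11243 genes with KLF4, 4143 were below 0, with a median of 0.004. Neither background was matched for signal. Dppa2 and Dppa4 share a bin, and Klf2, Klf4 and Klf5 are among the genes named as guide targets. Zfp42 was the fourteenth from the lowest, next to Dppa5a (-0.21) and Tfcp2l1 (-0.17), the latter a transcription factor of the naive network. Lower values were found at Tcl1 (-0.52) and Nr0b1 (-0.49), each from 1 bin, and at Tbx3 (-0.22) and Pou5f1 (-0.21). The highest were at Klf5 (0.43) and Lin28a (0.32). Gbx2 had a 0 h value only.

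By 0 h signal Zfp42 ranked 12 of the 31. Its mean of 8.33 at 0 h was below Dppa5a (16.3), Fgf4 (12.8) and Nanog (10.0) and close to Pou5f1 (8.73) and Jam2 (8.23). The summed bin score was lower at 24 h in 22 of the 31 genes and higher in 6. Over the 11243 protein-coding genes with a bin valued at both times, 55.4% were lower and 31.5% higher.

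**Figure D4:**
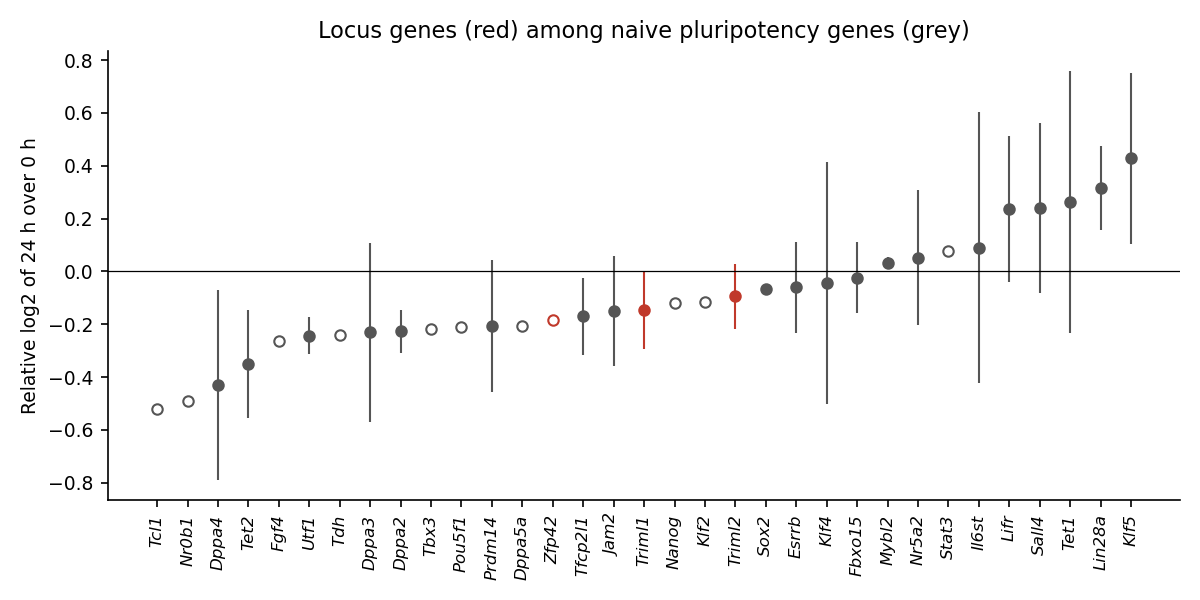
Relative log2 of 24 h over 0 h H3K27ac signal (vertical axis) at Zfp42, Triml1 and Triml2 (red) and 30 other genes of the naive list (grey), ordered by value. Points are means over bins within 10 kb of the gene and bars are the SD over bins, which is no error between cultures. Open points rest on 1 value per time and have no bar. Zfp42 at -0.18 is an open point among the genes below 0.

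The protein-coding genes most like Zfp42 over 6 measures (0 h signal, relative value, bin score per bin, 24 h share of the score, KLF4 peaks and iPSC H3K27ac peaks, each as a rank) were Zfp961, Fbxo24, Rabif, 4931414P19Rik and Agtrap. Their distances in rank units were 0.0764 to 0.123 among 11243 genes. Zfp961 had a mean signal of 8.84 at 0 h and 6.43 at 24 h, a relative value of -0.16 and 2 KLF4 peaks.

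Marker genes of the labelled cell type carried acetylation. All 8 pluripotency markers, Zfp42 among them, had a bin with a signal at both times, and their highest signals summed to 103 at 0 h and 82.7 at 24 h. Of all protein-coding genes, 56.7% had such a bin at 0 h and 55.0% at 24 h, so the counts of the small lists that follow cannot be told from that background. For feeder fibroblasts it was 3 of 8 at both times, with sums of 19.0 and 15.4, and Col1a2, Thy1, Twist1, Prrx1 and Postn had none at 0 h. For trophectoderm it was 1 of 4 at both times, with sums of 8.31 and 5.47, and Cdx2, Eomes and Elf5 had none at 0 h. For primitive endoderm it was 2 of 4, with 6.83 and 6.09, and Sox17 and Pdgfra had none at 0 h. All these sums are as deposited and cannot be compared between the times. Among the pluripotency markers Esrrb alone gave 29.7 at 0 h. Any part of feeder or other cells in the values of the locus was not tested.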

How the data were processed

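The authors deposited 4 lists, 1 for each ChIP group of a series of 12 samples in mouse cells. Bowtie2, SAMtools, bedtools and MACS2 and the build mm10 are named in the submitters' processing notes, without versions or roles. The sources used here do not say how replicates were combined or signals scaled. The deposited ESC lists hold 10 kb bins with a whole-number score (column 4), marks that are also scores of 0, 1 or 2 (columns 5 to 9) and a signal (column 10), which was read as H3K27ac from the group of the list. The smallest number a computer stores stands for no signal. The deposited iPSC lists hold only starts and ends. These were read as BED, adding 1 to the start, and could be off by 1 base.

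Groups came from sample titles and lists were tied to groups by their names. Gene spans and promoters came from RefSeq GRCm38.p6, and all 3 members matched. Overlap was 1 bp or more. Exact (Clopper-Pearson) intervals at 95%, for counting error only, were used solely as the tolerance for alternative shares. They treat peaks, bins and units of the score as independent. Members, lists and comparisons were chosen with earlier results of these data known, and named genes were the members, the window's genes, the naive list, Yy1, Yy2, Fat1 and the 5 genes most like Zfp42. Deciles of mean signal were a later addition, made with the values known. The gene means were tested on simulated data, with a mean error of -0.004 and an SD of error of 0.15 in log2. The noise was drawn separately for each bin at a chosen size. That SD therefore reflects the choice and is not the error of the locus values, whose bins can repeat 1 number. It is about as large as the relative values of Zfp42 (-0.18) and Triml1 (-0.15). Recovery of values as small as those of the locus was not tested. Computations used Python 3.11.15, pandas 2.3.3, numpy 2.4.6 and scipy 1.17.1. Alternatives changed flanks, windows, the reference, repeated bins, the bins used, overlap and peak width.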

Additional observations from a re-analysis of the deposited data

How the results depend on the processing

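Of 48 alternative values computed for the relative log2 values, score shares and overlaps of the locus, 43 moved by less than the SD over the window's bins (0.17, for log2 values) or stayed inside the exact binomial interval (for shares), and none changed sign. This count says little about stability, because that SD is about as large as the log2 values it judges. Triml1, reported as -0.15, was counted among the 43 even with its alternative of -0.02 given below. Some alternatives used the same bins and could not differ, such as windows of 50 kb and 100 kb for the median log2 value. The binomial intervals treat units of the score as independent, which is not known. The other 5 of the 48 alternatives moved further. Without any reference the log2 of 24 h over 0 h was -0.41 at Zfp42, -0.37 at Triml1, -0.32 at Triml2 and -0.41 as the median of the window, because the median shift of all bins is then included. When a KLF4 and an H3K27ac peak each had to cover 50% of the other, the share of KLF4 peaks that overlapped was 0% in place of 100%, since these KLF4 peaks are narrower than 50% of the acetylated peaks that hold them. With the highest signal per time in place of the mean, Triml1 and Triml2 both gave -0.02, the value of the bins they share. No paired analysis was possible because no list holds values per replicate, and leaving out a replicate could not be run for the same reason. The unknown depth and scaling limit what can be said of changes near the size of the reference shift.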

Other observations

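Fat1, a large cadherin gene beyond the window on chromosome 8 (chr8:44933100-45052257), had a relative log2 of 0.17 with an SD of 0.41 over 9 bins, and a highest signal of 6.92 at 0 h and 5.56 at 24 h. Its summed bin score was 73 and 63. It had 4 KLF4 peaks and 19 iPSC H3K27ac peaks within 10 kb. Of the genes related to Zfp42 by descent, Yy1, a widely expressed zinc-finger regulator, had a relative value of 0.05 from 2 bins, a score of 19 at both times and 1 KLF4 peak. Yy2 on chromosome X, like Zfp42 a retrotransposed relative of Yy1, had 0.06 from 1 bin, a signal of 9.37 and 8.36, a score of 15 and 17, and no KLF4 peak. The difference between these genes and Zfp42 was not tested, since each rests on 1 list per time.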
